A study of Mus musculus with 4 samples.

Results

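Chromatin accessibility was examined around 6 forkhead genes of mesoderm, Foxq1, Foxf2 and Foxc1 on chromosome 13 and Foxf1, Foxc2 and Foxl1 on chromosome 8, out of 21839 protein-coding genes. The genes were given by name. Their peaks were those within 1 kb of a transcription start site (TSS), called promoter peaks here, and those within 100 kb of one. Peaks of all 4 lists that shared at least 1 bp were merged into 80380 regions, of which 42 lay within 100 kb of the 6 genes, 20 on chromosome 13 and 22 on chromosome 8.

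Embryoid bodies on day 4 were assayed by ATAC-seq, which maps open chromatin by where a transposase can insert sequencing adapters. These bodies are clumps of embryonic stem cells that have begun to differentiate. Here E14Tg2A mouse embryonic stem cells, kept on inactivated mouse embryo fibroblasts with leukemia inhibitory factor and 2 inhibitors of signalling, were put into hanging drops with serum and without the factor. Wild-type cells (WT, 2 libraries) were compared with CTCF-K20R cells (K20R, 2 libraries), whose chromatin protein CTCF carries arginine in place of lysine 20 after CRISPR/Cas9 editing. The study describes 2 biological replicates per genotype, and how many edited clones stand behind the K20R libraries was not given in the sources used here.

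Forkhead proteins bind DNA through a winged-helix domain. Foxc1 and Foxc2 act together in paraxial mesoderm, in the cardiovascular system and in the eye. Foxf1 is needed for extraembryonic and lateral plate mesoderm, and Foxf2 acts in gut mesenchyme and the palate. Foxl1 is known from gut mesenchyme, and Foxq1 from hair and stomach lining. These genes stand in a pair of clusters that arose by duplication, so that Foxc1 and Foxc2, and Foxf1 and Foxf2, are paralogues. All 6 are transcribed from the plus strand.

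In GRCm38 (mm10) the GENCODE annotation places Foxq1 at chr13:31556134-31560976, Foxf2 at chr13:31625816-31631403 and Foxc1 at chr13:31806633-31812476. Foxf1 lies at chr8:121084386-121088144, Foxc2 at chr8:121116171-121118895 and Foxl1 at chr8:121127940-121130644. The TSSs of the cluster on chromosome 13 span 250499 bp, against 43554 bp on chromosome 8. Besides the members, 2 protein-coding genes (A530084C06Rik and Mthfsd) and 13 other annotated genes have a TSS within 100 kb. One of these is Fendrr, a long noncoding RNA of lateral mesoderm. RefSeq starts it 1276 bp upstream of Foxf1 on the other strand.

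Sequences are shown for 3 distal regions and for the promoters that the reference table holds. The 3 distal regions are among the 5 within 100 kb that had a peak in both WT lists and in neither K20R list. All are plus-strand sequence of GRCm38, and each distal stretch is 201 bp long. Capitals mark the bases from the first to the last summit among the libraries with a peak, except in the region downstream of Foxl1. There both summits fell on the same base, and capitals mark the T-box match AGGTGTGA, the reverse complement of TCACACCT.
Upstream of Foxc1, WT lists alone, chr13:31760366-31760566: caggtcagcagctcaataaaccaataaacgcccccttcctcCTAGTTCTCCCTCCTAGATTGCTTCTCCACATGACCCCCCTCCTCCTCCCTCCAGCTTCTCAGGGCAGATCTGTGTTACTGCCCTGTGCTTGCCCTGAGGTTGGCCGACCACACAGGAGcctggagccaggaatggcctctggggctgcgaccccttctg
Downstream of Foxl1, WT lists alone, chr8:121201169-121201369: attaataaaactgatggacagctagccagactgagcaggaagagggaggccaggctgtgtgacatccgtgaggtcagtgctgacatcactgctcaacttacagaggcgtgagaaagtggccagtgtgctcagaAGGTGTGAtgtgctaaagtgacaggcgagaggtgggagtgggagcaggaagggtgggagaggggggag
Downstream of Foxf1, WT lists alone, chr8:121090893-121091093: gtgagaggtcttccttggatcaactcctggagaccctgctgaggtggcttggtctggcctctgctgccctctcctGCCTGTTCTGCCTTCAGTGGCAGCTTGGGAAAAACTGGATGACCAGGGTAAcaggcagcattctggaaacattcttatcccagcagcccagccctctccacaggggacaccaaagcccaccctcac

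These distal stretches hold 55.2% to 59.2% G or C and between 0 and 3 CpG dinucleotides. The promoter table of RefSeq (GRCm38.p6) matched 2 of the 6 members, Foxf2 and Foxc1, and the bases upstream of their TSS are given next, with capitals again from the first to the last summit inside the stretch. In Foxf2 these are the summits of the 2 K20R libraries, since both WT summits lay downstream of the TSS, and in Foxc1 those of all 4 libraries.
Foxf2, chr13:31625566-31625815: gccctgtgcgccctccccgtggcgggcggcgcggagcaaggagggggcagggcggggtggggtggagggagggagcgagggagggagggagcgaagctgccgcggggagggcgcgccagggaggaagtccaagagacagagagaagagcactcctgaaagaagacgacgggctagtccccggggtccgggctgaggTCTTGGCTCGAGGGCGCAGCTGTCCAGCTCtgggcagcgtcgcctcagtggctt
Foxc1, chr13:31806396-31806632: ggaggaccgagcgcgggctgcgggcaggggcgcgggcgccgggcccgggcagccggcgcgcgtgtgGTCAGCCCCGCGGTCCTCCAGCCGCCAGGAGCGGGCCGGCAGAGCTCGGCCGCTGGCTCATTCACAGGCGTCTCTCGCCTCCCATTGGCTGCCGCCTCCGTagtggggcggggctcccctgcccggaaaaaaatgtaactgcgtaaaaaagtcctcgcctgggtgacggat

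The Foxf2 stretch holds 71.6% G or C with 21 CpG dinucleotides in 250 bp, and the Foxc1 stretch 72.6% with 29 in 237 bp. The promoters of Foxq1, Foxf1, Foxc2 and Foxl1 are named only.

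A few facts of the libraries bear on what follows. Peak numbers were 59783 and 66703 for WT, 51823 and 55832 for K20R, and read totals are not part of the lists, so sequencing depth is unknown. Between 50.5% and 60.8% of the peak numbers that MACS2 gave are still present in a list, so that a region without a listed peak can have had one that was taken out. The summit fold over background at regions found in all lists had a median of 5.86 and 7.74 in WT against 5.73 and 7.59 in K20R, the higher value in replicate 2 of each genotype. Peaks were therefore compared by their percentile, the rank of the −log10 p within the library's own list, where 100 is the strongest peak. Promoter peaks were present in all 4 libraries for 7 of 8 early mesoderm genes, 6 of 6 pluripotency genes and 4 of 8 fibroblast genes. Of the fibroblast genes Col3a1, Postn and Fap had no promoter peak in any list, and Dcn had one in 3 lists, at 67.9 and 77.7 for WT and 24.7 for K20R replicate 2. By percentile in the list, 3 early mesoderm genes were lower in K20R (both libraries below both WT libraries) and 3 higher, 1 pluripotency gene was lower and 3 higher, and 1 fibroblast gene was lower (Thy1, by −10.1 points) and 0 higher. Of 4 neuroectoderm genes 2 were lower, and of 5 endoderm genes 4 had a promoter peak in every list and all 4 were lower, with a median difference of −22.4 points. Over all 14479 promoters with a peak in 4 lists, 32.2% were lower and 15.7% higher, with a median difference of −0.824 points. Ranked among promoters only, 2 early mesoderm genes were lower and 3 higher, and 0 pluripotency genes were lower and 3 higher. On that scale 1 fibroblast gene was lower and 1 higher, 2 neuroectoderm genes were lower, and 4 endoderm genes were lower. The shares of all promoters were then 23.0% and 23.8%. The part of these cell types in the results was not tested. In bulk chromatin, fewer cells with an open site and less opening per cell cannot be told apart.

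With 2 libraries against 2, the exact two-sided permutation test over libraries cannot give a p below 0.333. A peak or region was therefore called lower (or higher) in K20R where both K20R percentiles lay below (or above) both WT percentiles. Each main count is set beside the share of all promoters or regions so called. No member differed past a p of 0.05, which this design cannot reach.

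Among the strongest promoter peak of each member, that of Foxf1 was the one at which the genotypes did not overlap by percentile in the list. The percentile of its peak was 68.3 and 72.0 in WT against 52.3 and 60.5 in K20R. Both K20R libraries thus lay below both WT libraries, with means of 70.2 ± 2.66 (SD, n = 2) and 56.4 ± 5.76 (SD, n = 2) and a difference of −13.8 points (exact permutation test, p = 0.333). The peak, which covers the TSS and reaches upstream over the RefSeq start of Fendrr, had summits 554 to 673 bp upstream of the Foxf1 TSS in all 4 libraries. The summits thus lie between the starts of Foxf1 and Fendrr, and the peak cannot be assigned to either gene alone. Its summit fold was 4.29 and 5.29 in WT against 3.55 and 4.57 in K20R. Relative to the library's median fold over regions common to all lists, the log2 level was −0.45 and −0.55 in WT against −0.69 and −0.73 in K20R, a difference of −0.21 in the same direction. Without WT replicate 2 or without K20R replicate 1 the difference in percentile was −11.9 and −9.69 points. Once peaks under a −log10 q of 10 were dropped, the percentiles were 33.1 and 54.2 in WT against 5.97 and 38.9 in K20R, and the genotypes then overlapped.

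Foxf2, the paralogue of Foxf1, did not share this direction. Its promoter peak ranked at 63.8 and 71.0 in WT against 68.7 and 74.97 in K20R, so that the libraries interleaved (difference 4.45 points, exact permutation test, p = 0.667). The peak spanned about the same 2146 to 2199 bp in each library, with summits between 54 bp upstream and 107 bp downstream of the TSS. Measured as log2 fold relative to the library median, the level was −0.74 and −0.92 in WT against −0.46 and −0.56 in K20R, with no overlap and a difference of 0.32. The difference at Foxf2 was positive on both scales, and whether the libraries overlapped depended on the scale.

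The main promoter peaks of the Foxc pair overlapped between the genotypes. The Foxc1 promoter peak ranked at 56.1 and 63.2 in WT against 55.6 and 57.8 in K20R, a difference of −2.92 points (exact permutation test, p = 0.667). Its width varied, at 1148 and 688 bp in WT against 900 and 2548 bp in K20R, while the summits stayed 71 to 171 bp upstream of the TSS. The Foxc2 promoter peak ranked at 58.8 and 39.5 in WT against 50.0 and 46.6 in K20R, a difference of −0.789 points (exact permutation test, p = 1). Here both K20R libraries fell inside the range of the WT libraries, which differed from each other by more than the genotypes did. A second, weaker peak of Foxc2 with its summit 703 bp upstream of the TSS ranked at 19.6 and 22.1 in WT against 9.26 and 11.5 in K20R. By percentile, the K20R libraries thus lay below both WT libraries at this smaller element. By log2 fold relative to the library median the genotypes overlapped, at −1.25 and −1.51 in WT against −1.43 and −1.77 in K20R.

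In every library the lowest of the 5 promoter ranks was that of Foxl1 or of Foxc2. The Foxl1 peak stood at 45.6 and 43.6 in WT against 42.1 and 53.7 in K20R, a difference of 3.32 points with overlap (exact permutation test, p = 1). By relative log2 fold the level was −0.80 and −1.07 in WT against −0.79 and −0.73 in K20R, narrowly without overlap and higher in K20R. The summits lay 593 to 852 bp downstream of the TSS. The summit of its strongest peak lies in coding sequence. With promoters taken as 2 kb to each side the difference became −12.0 points, because the peak 2.36 kb upstream then reached into the window in WT replicate 1 alone, at 76.2. That value thus sets a different peak in 1 library beside the Foxl1 promoter peak in the other 3.

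Foxq1 had no peak within 1 kb of its GENCODE TSS in any list. RefSeq starts the gene at chr13:31558170, further downstream, and a peak within 1 kb of that position was present in all 4 lists. It ranked at 86.1 and 79.8 in WT against 83.4 and 83.9 in K20R, the highest of the 6 genes' promoter peaks in each library, and the genotypes overlapped (difference 0.682 points, exact permutation test, p = 1). The summits lay 1625 to 1831 bp downstream of the RefSeq TSS, in the coding sequence, and within 1 kb of the start of A530084C06Rik. Reads at this place cannot be assigned to one of these 2 genes.

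**Figure D1:**
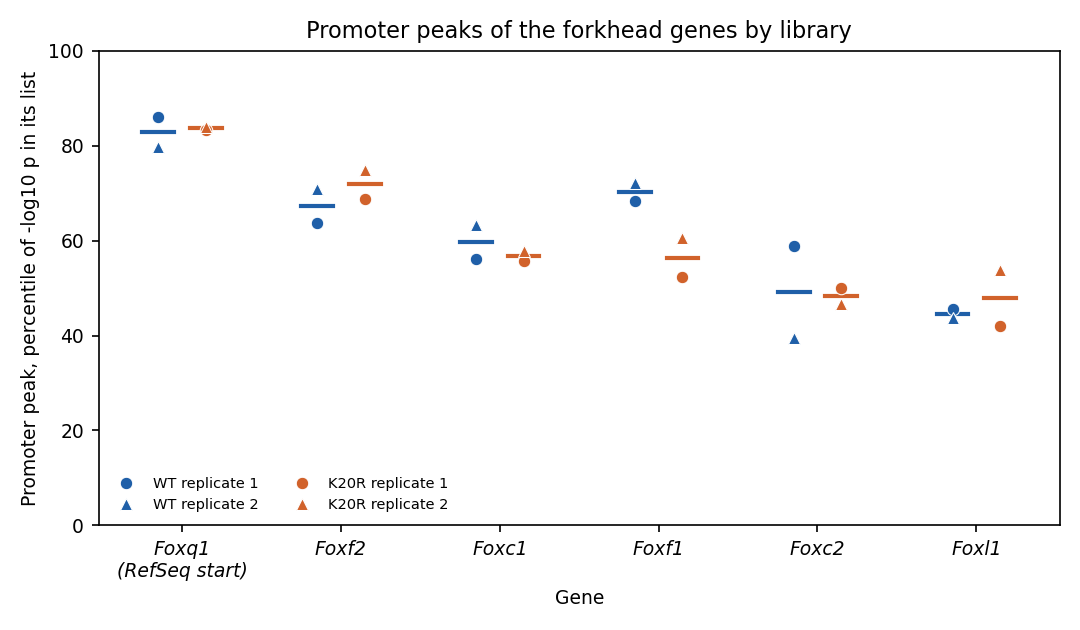
Percentile of the promoter peak's −log10 p within its library's list (vertical axis, 0 to 100) for the 6 genes, with circles and triangles for replicates 1 and 2, blue for WT and orange for K20R, and short bars at the mean of 2 libraries. The 2 K20R points lie below the 2 WT points at Foxf1 alone (52.3 and 60.5 against 68.3 and 72.0), and the Foxq1 peak is taken at the RefSeq start.

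By this rule 1 of the 5 members with a promoter peak in every list was lower in K20R and 0 were higher. Of all 14479 promoters with a peak in 4 lists, 32.2% were lower and 15.7% were higher, so 1 of 5 does not set the members apart. When the promoter peaks were ranked anew among promoters only, Foxf1 was lower and Foxf2 and Foxl1 were higher, which makes 1 and 2 of 5, against 23.0% and 23.8% of all promoters. The median difference over the 5 members was −0.789 points, against −0.824 over all 14479 promoters.

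The promoter peaks of these genes were of low rank, and several were wide. Among all promoters with a peak, the 5 stood between percentile 2.45 and percentile 24.8 in every library. The summits were thus weak in comparison with other promoters, and all log2 folds of these 5 promoter peaks lay below the library median, from −1.18 to −0.45. The peaks of Foxf2, Foxf1 and Foxc2 stood at percentile 97.8 of width or above in each list, between 2052 and 2749 bp where the median peak measured 638 to 729 bp. Those of Foxc1 and Foxl1 were not wide throughout, at width percentiles of 52.0 to 99.3 and of 78.5 to 90.5. The Foxq1 peak measured 2316 to 2518 bp and stood at percentile 98.8 of width or above. Within 500 bp of the TSS, the 5 promoters held 55.7% to 72.7% G or C, against a median of 54.7% for all genes. Their ratio of observed to expected CpG was 0.77 to 0.99 against a median of 0.54. At the RefSeq start of Foxl1 these values were 53.8% and 0.58, close to the medians. At Foxq1 the 2 annotated starts differed, with 46.4% G or C and a ratio of 0.24 at the GENCODE TSS and 63.7% and 0.86 at the RefSeq TSS.

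Other forkhead genes gave a setting for these values. Of 38 others, 34 had a promoter peak in every list, Foxr1 had one in 3 lists, and Foxi1, Foxn1 and Foxp3 had none. Their median percentiles were 77.8 and 79.5 in WT against 75.8 and 78.3 in K20R, and those of the 5 members were lower in each library, at 58.8 and 63.2 for WT and 52.3 and 57.8 for K20R. In K20R 9 of the 34 were lower and 3 were higher, where 32.2% and 15.7% of all promoters were. Ranked anew among promoters the counts were 7 and 8, against 23.0% and 23.8% of all. Foxa2, a forkhead gene of endoderm, gave the largest difference without overlap, with 96.7 and 97.1 in WT against 81.1 and 78.9 in K20R. Foxi2 gave 55.1 and 66.3 in WT against 71.9 and 72.7 in K20R. None of the 34 genes differed by 20 points or more without overlap. Foxa2 and Foxi2 thus fall outside the rule for named genes and were picked after their values were seen. Patterns were compared by the Euclidean distance of the 4 percentiles, among forkhead genes with a promoter peak in every list. The pattern most like that of Foxf2 was that of Foxr2 (distance 7.04 points), and that of Foxc1 was Foxs1 (8.85). For Foxf1 it was Foxb1 (13.3), and Foxd3 came nearest to both Foxc2 (11.4) and Foxl1 (15.3).

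**Figure D2:**
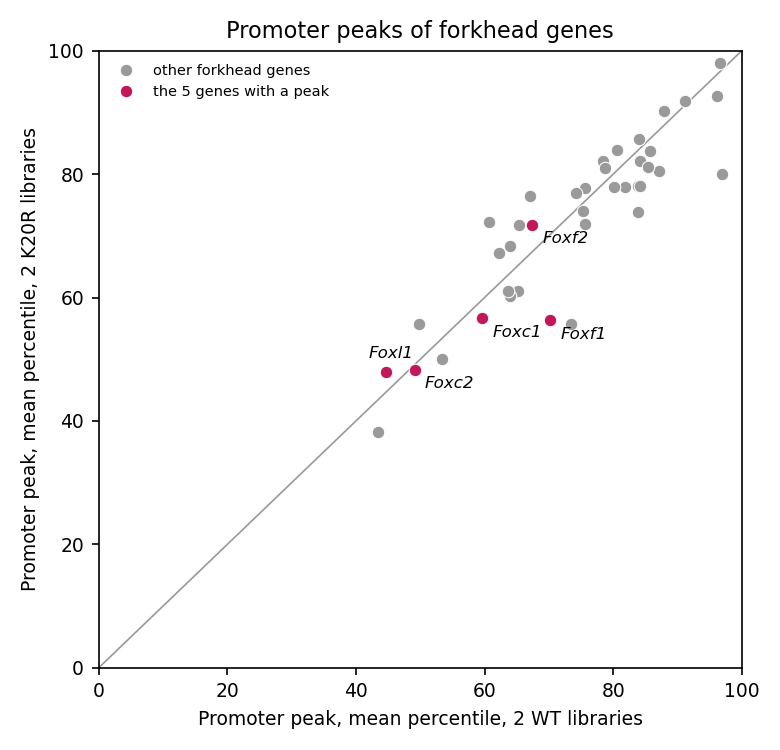
Mean percentile of the promoter peak in the 2 WT libraries (horizontal axis) and in the 2 K20R libraries (vertical axis) for forkhead genes with a promoter peak in all 4 lists, grey for the 34 others and pink for the 5 members. The members sit in the lower part of the cloud, and Foxf1 (70.2 in WT, 56.4 in K20R) lies below the line of equal means.

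Within 100 kb of the 6 genes there were 40 and 33 peaks for WT and 27 and 28 for K20R. Both K20R lists held fewer peaks than both WT lists, on average 27.5 ± 0.707 against 36.5 ± 4.95 (SD, n = 2 each), which is 0.41 as the log2 of WT over K20R (exact permutation test, p = 0.333). The same quantity over the whole lists was 0.23. On chromosome 13 the counts were 21 and 16 in WT against 13 and 15 in K20R, and on chromosome 8 they were 19 and 17 in WT against 14 and 13 in K20R. Weak peaks of WT replicate 1 bear on these counts. Of the 42 regions 11 were found in a single list, 8 of these in WT replicate 1, with percentiles from 0.344 to 23.0. Without that library the log2 ratio was 0.26, which cannot be set beside the 0.23 over the whole lists, since that value includes it. Peaks within 100 kb made up 0.067% of the list in WT replicate 1 and 0.049% in WT replicate 2. In K20R they made up 0.052% and 0.050%, both above the share in WT replicate 2. Without WT replicate 1 the windows thus held no larger share of the WT list than of the K20R lists. The length covered by peaks was 32.3 kb in both WT libraries and 27.7 and 29.7 kb in K20R.

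Of the 42 regions, 22 were common to all 4 lists and 5 had a peak in both WT lists and in neither K20R list, called WT-restricted here. These are 11.9% of the 42, where 10.4% of all 80380 regions were WT-restricted. No region within 100 kb was restricted to K20R in the same sense, where 3.10% of all regions were. A further 4 regions had a peak in 3 lists.

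The strongest WT-restricted region, chr13:31759722-31761161, lies in intergenic sequence 46.1 kb upstream of Foxc1 and is the first sequence printed above. Its percentile was 83.2 and 82.7 in the WT libraries, higher than that of any member promoter except the Foxq1 peak in WT replicate 1, with a summit fold of 8.59 and 9.95. In each K20R list 1 peak number is missing between the neighbouring peaks, so a called and later removed peak there is possible in both.

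A pair of WT-restricted regions flanked Foxf1. The one downstream, chr8:121090836-121091382, lies 6.58 kb from the TSS and past the end of the gene, with percentiles of 53.9 and 47.2 and folds of 3.99 and 4.24. The one upstream, chr8:121074618-121075175, lies 9.47 kb before the TSS and was weak, with percentiles of 9.54 and 26.2. For both, no peak number is missing at that place in either K20R list, so no peak had been called there and taken out. Of all 8341 WT-restricted regions 29.0% meet that condition.

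The other WT-restricted regions were far from the members. The region chr8:121200791-121201461 lies 73.3 kb downstream of the Foxl1 TSS, in an intron of the noncoding gene 5033426O07Rik. Its percentile was 47.5 and 61.1, its summits fell on the same base in both WT libraries, and a T-box match begins 33 bp from that base. No peak number is missing at that place in K20R replicate 1. In K20R replicate 2, 1 is missing, so a called and later removed peak is possible there. The region chr13:31531461-31532120, 24.4 kb upstream of Foxq1, had percentiles of 50.7 and 36.0. In K20R 3 and 5 peak numbers are missing around it.

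**Figure D3:**
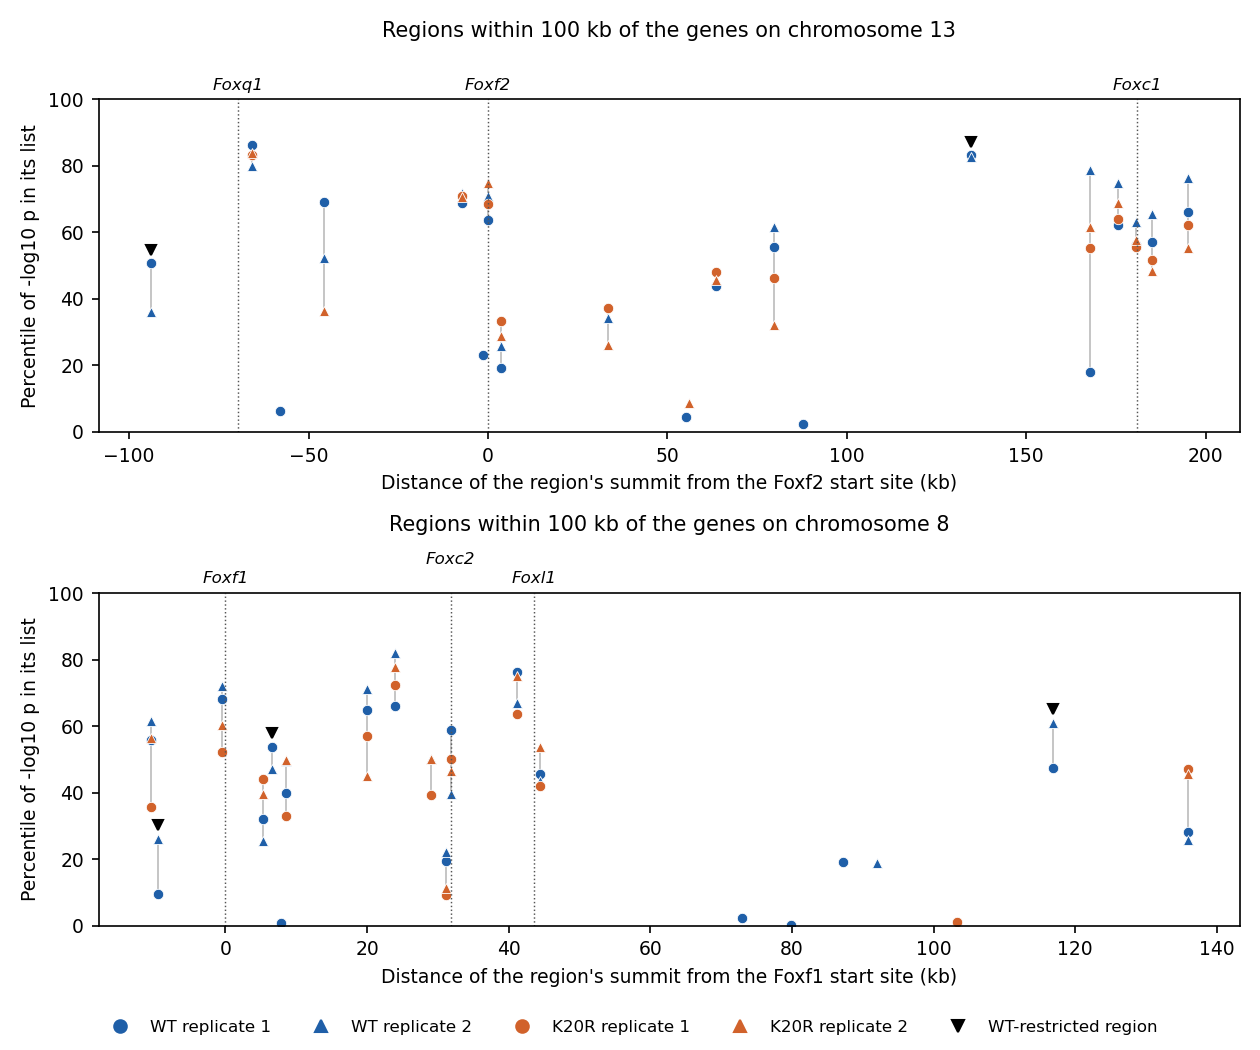
The regions within 100 kb of the members, with 1 left out, by the distance of its summit from the Foxf2 TSS (upper panel, chromosome 13) or the Foxf1 TSS (lower panel, chromosome 8), in kb, with the percentile of its peak in each library on the vertical axis and a grey line joining the libraries of a region. Black triangles mark the 5 WT-restricted regions, of which the highest, at 83.2 and 82.7, stands between Foxf2 and Foxc1, and dotted lines mark the members' TSSs.

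The 4 regions with a peak in 3 lists did not point one way. At chr13:31579526-31580382, between Foxq1 and Foxf2, the percentile was 69.2 and 52.4 in WT against 36.4 in K20R replicate 2, with no listed peak in K20R replicate 1. There 1 peak number is missing in K20R replicate 1, so a called and later removed peak is possible. A WT list lacked the peak in the 3 others. At chr8:121113354-121113809, 2.70 kb upstream of Foxc2, WT replicate 2 had 50.2 and the K20R libraries 39.2 and 50.3, and no peak number is missing there in WT replicate 1. The regions 33.5 kb and 63.7 kb downstream of Foxf2 had percentiles of 34.3 and 43.9 in the one WT list with a peak, and of 26.1 to 48.2 in K20R. In the WT list without a peak, 1 peak number is missing at the first (replicate 1) and 2 at the second (replicate 2).

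Among the 22 common regions 6 were lower in K20R, 4 were higher and 12 overlapped. Over all 38527 common regions 34.8% were lower and 18.6% were higher. Ranked among common regions only, 5 of the 22 were lower and 7 were higher, against 25.5% and 29.2% of all. The median difference in percentile was −1.49 points for the 22, against −1.52 for all common regions. No common region without overlap reached a difference of 20 points.

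**Figure D4:**
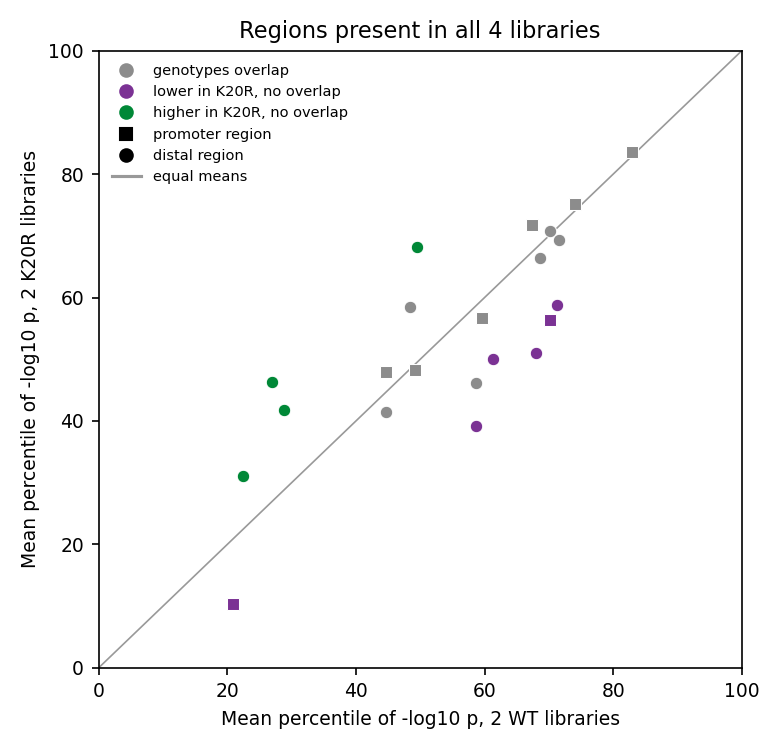
Mean percentile in the 2 WT libraries (horizontal axis) and in the 2 K20R libraries (vertical axis) of the 22 regions found in all 4 lists, squares for regions within 1 kb of a protein-coding TSS and circles for distal ones, purple for the 6 lower and green for the 4 higher in K20R without overlap. The lower regions include 2 of the squares, at Foxf1 (70.2 in WT, 56.4 in K20R) and at the smaller upstream peak of Foxc2 (20.8 and 10.4).

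The common regions with the largest differences were distal, and they were picked out after their values were seen. The region chr13:31705081-31705963, 79.8 kb downstream of the Foxf2 TSS in intergenic sequence, had percentiles of 55.6 and 61.7 in WT against 46.2 and 32.0 in K20R, a difference of −19.5 points. On chromosome 8, chr8:121219847-121220888, 92.4 kb downstream of Foxl1, was higher in K20R, at 28.1 and 25.7 in WT against 47.1 and 45.6 in K20R, a difference of 19.4 points. On the scale of log2 fold relative to the library median these differences were −0.48 and 0.42.

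By the rule for named regions, the strongest common distal regions of each cluster are described next, 5 on chromosome 13 and 4 on chromosome 8. On chromosome 13 the strongest was chr13:31618194-31621031, 7.15 kb upstream of Foxf2 in an intron of the noncoding gene 1700018A04Rik. It was even across libraries, with 68.8 and 71.7 in WT against 70.8 and 70.7 in K20R. The region chr13:31800754-31802185, 5.23 kb upstream of Foxc1, ranked at 62.3 and 74.9 in WT against 63.9 and 69.0 in K20R, with overlap.

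Both strong regions at and past the 3′ end of Foxc1 were lower in K20R. In an intron of Gmds, the gene of GDP-mannose dehydratase, chr13:31820631-31821321 had 66.0 and 76.5 in WT against 62.3 and 55.3 in K20R. In the 3′ untranslated exon of Foxc1, chr13:31810649-31812164 had 57.0 and 65.5 in WT against 51.6 and 48.4 in K20R. In log2 fold relative to the library median these differences were −0.03 and −0.04, so on that scale the genotypes had nearly equal means. The region 13015 bp upstream of Foxc1, chr13:31792212-31793908, holds a T-box and a GATA match, and its WT libraries were far apart, at 18.1 and 78.9, with K20R at 55.2 and 61.7 between them.

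On chromosome 8 the strongest common distal region, chr8:121124669-121125946, lies 2.36 kb upstream of Foxl1. It ranked at 76.2 and 66.997 in WT against 63.8 and 74.9 in K20R, with overlap, and above the Foxl1 promoter in each library. In an intron of Mthfsd, which lies between Foxf1 and Foxc2, chr8:121104132-121104944 had 64.8 and 71.2 in WT against 56.9 and 45.2 in K20R, a difference of −17.0 points and of −0.39 in relative log2 fold. The Mthfsd promoter itself, at 66.2 and 81.9 in WT against 72.3 and 77.9 in K20R, overlapped.

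The other strong regions of chromosome 8, 10.6 kb upstream and 8.51 kb downstream of the Foxf1 TSS, had 56.0 and 61.5 and 39.9 and 49.5 in WT, and 35.7 and 56.5 and 33.0 and 49.8 in K20R, and both overlapped.

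Around Foxf1 the elements did not move together. Downstream of the gene, 5.30 kb from the TSS, chr8:121089179-121090222 was higher in K20R, with 32.2 and 25.4 in WT against 44.1 and 39.6 in K20R, while its neighbour at 6.58 kb was WT-restricted and the promoter was lower. An element in the Foxf2 intron, chr13:31629070-31629919, was also higher, with 19.2 and 25.8 in WT against 33.4 and 28.9 in K20R. The region at 5.30 kb and this intron element fall outside the rule for named regions and were picked after their values were seen. They are of low rank in WT. The count of common regions higher in K20R was 4, and 1 at a −log10 q of at least 5.

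The median difference in relative log2 fold (K20R minus WT) was 0.18 over the 10 common regions of the chromosome 13 window and 0.11 over the 12 of chromosome 8. In the 1 Mb to each side of the windows it was −0.04 over 14 common regions and 0.03 over 88. The middle of the distribution of all 38527 common regions was at 0.0033, with quartiles of −0.18 and 0.18.

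Consensus motifs were searched on both strands within 100 bp of the strongest summit of each region, and none of the words contains another. The forkhead word TGTTTAC, the homeobox word TAATTA and the CTCF consensus were in 0 of the 42 regions, where 3.30%, 3.48% and 5.97% of all regions hold them. The T-box word TCACACCT was in 2 of 42 (1.25% of all regions), the GATA word AGATAA in 3 (7.81%) and the TCF-LEF word CTTTGAA in 1 (3.92%). The T-box matches were in the WT-restricted region downstream of Foxl1 and in the region 13015 bp upstream of Foxc1. In the promoter windows of the reference table for Foxf2 and Foxc1, none of the 6 motifs was found, where between 0.557% and 11.2% of 32851 promoters hold one.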

How the data were processed

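ATAC-seq peak lists of 4 libraries, 2 WT and 2 CTCF-K20R, were used, grouped by the labels. As the study's methods state, reads were trimmed with Trim Galore and aligned to mm10 with Bowtie2, reads with a mapping quality below 30, duplicates and blacklisted reads were removed, and peaks were called with MACS2 at default settings. Each library has its own list, and pooled calling was not stated. The lowest −log10 p in a list was between 2.00 and 2.02, and 2.18% to 5.05% of a list's peaks had a q over 0.05. The lists thus hold weak peaks that a q cutoff of 0.05 would leave out. In the deposited lists the authors give for each peak a score, a fold (ratio) of the summit over the local background, the −log10 p and the −log10 q of the summit, and the summit's offset. Read totals are not in the lists, so depth and its counting error are unknown and no count test was possible. Lists shortened by an unstated rule can hide a called peak, and weak peaks enter and leave a list most easily.

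Percentiles of −log10 p were computed in each list with ties at their mean rank. Peaks sharing at least 1 bp were merged into regions, a region's value in a library being that of its strongest peak. TSSs came from GENCODE vM21 basic, and from RefSeq as an alternative chosen after seeing the data, and the readthrough gene Gm20388 was left out. Relative log2 fold is the summit fold over the library's median fold at common regions. Numbers per library were compared by exact two-sided permutation tests. The region and call functions were tested on simulated lists. Named were all 6 members, every restricted region within 100 kb, the 5 common distal regions of each cluster with the highest mean percentile, common regions and other forkhead genes differing by 20 points or more without overlap, and the forkhead gene most alike to each member. A distal region is not reported here. The members, gene lists and motifs were chosen with earlier results of these data known. The correlation over 38527 common regions of replicate 1 minus 2 in WT with that in K20R was 0.041, so the replicate numbers were not taken to pair libraries. Python 3.11.15, numpy 2.4.6, pandas 2.3.3 and matplotlib 3.10.9 were used. Alternatives were stricter q thresholds, equal list lengths, other promoter and window sizes, ranking by fold or within subsets, a stricter overlap, a replicate block, leaving out each library, and restricted regions with no missing peak number, the last also chosen after seeing the data.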

Additional observations from a re-analysis of the deposited data

How the results depend on the processing

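Calls rest on 2 libraries against 2, so the exact permutation test can pass no threshold, and most counts are small. The difference at Foxf1 stayed negative, between −8.85 and −21.2 points, under every alternative run, and Foxf2 kept a positive difference under each. Against the main counts of 1 member lower and 0 higher, 0 were lower at a −log10 q of at least 10, and more were higher with equal list lengths (3), ranked by fold (2) and ranked anew among promoters (2). With the replicate block, which compares only libraries of the same number, 2 were lower and 1 higher. Ranked anew, 23.0% and 23.8% of all promoters were lower and higher. For the other alternatives the share of all promoters is not given. Those counts therefore do not show whether the members stand apart. Leaving out each library gave 1 to 3 lower and 0 to 2 higher. A call then needs only 2 libraries against 1 to separate, and a restricted region likewise rests on fewer libraries. Counts without a library, here and below, thus follow a looser rule and are not comparable with the main counts. WT-restricted regions (5) became 3 at a −log10 q of at least 10, 8 within 200 kb and 2 where no peak number is missing in K20R, and 5 to 13 without a library. K20R-restricted regions (0) became 2 within 200 kb and 1 to 2 without a library. Common regions lower (6) became 1 at a −log10 q of at least 10, 3 with equal list lengths and 8 to 12 without a library. Those higher (4) became 1 and 0 at a −log10 q of at least 5 and 10, 8 with equal list lengths, 7 ranked by fold, 7 ranked among common regions and 4 to 10 without a library. The log2 ratio of peaks kept its sign, at 0.26 to 0.54 without a library.

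The small differences changed sign. Foxc2 turned to 0.12 and 2.59 points at a −log10 q of at least 5 and 10, and to 9.002 with equal list lengths. Foxc1 turned to 0.15 at a −log10 q of at least 10, 4.10 with equal list lengths and 6.26 ranked by fold. Foxl1 turned to −12.0 with promoters of 2 kb, where another peak enters in WT replicate 1 alone, and Foxq1 to −1.55 ranked by fold. Without a library the ranges were −10.4 to 8.85 for Foxc2, −6.50 to 0.656 for Foxc1, −2.50 to 9.14 for Foxl1 and −2.47 to 3.83 for Foxq1. The cause of the other changes was not tested.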
